A study of Mus musculus with 12 samples.

Results

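Genes of coagulation and fibrinolysis were examined in whole liver of 12 mice. The set held 33 genes, chosen by name to cover the clotting cascade, its inhibitors and the breakdown of fibrin, and all 33 were found among the 22557 genes of the deposited expression table. Of these, 32 reached the minimum level for testing, as did 17380 genes in all, and A2m did not. The study asked how Mtdh of the host bears on liver lipid metabolism and CD8 T cells during tumour growth, and compared livers by RNA sequencing. Each of 4 groups held 3 libraries from different, age-matched female mice: Mtdh knockout with a Py8119 mammary tumour (KO_tumor), Mtdh knockout with no tumour (KO_no_tumor), wild type with a Py8119 tumour (WT_tumor) and wild type with no tumour (WT_no_tumor). Mtdh encodes metadherin, and Py8119 is a mouse mammary carcinoma line. The labels give neither the cells in which Mtdh was deleted nor the site of the tumour or the time of collection.

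Most clotting factors are made by hepatocytes and secreted into plasma, where a chain of proteases ends in thrombin, which turns soluble fibrinogen into fibrin. Several of the proteases and their inhibitors need a vitamin K dependent modification before they work, and plasmin later dissolves the clot. Fibrinogen is also a classical acute-phase protein: interleukin-6 acting through STAT3 raises its synthesis in the liver, whereas factor VIII, von Willebrand factor, thrombomodulin and tissue factor pathway inhibitor are made largely by endothelial cells.

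The promoter windows of the 4 genes that passed the test are shown first. They are RefSeq windows of GRCm38.p6 from 250 bases before to 50 bases after the start of each gene, read 5′ to 3′ on the gene's strand. Capitals mark CTGGGA on either strand (TCCCAG on the other), the core of interleukin-6 response elements known from rat fibrinogen genes. The windows lie at chr3:83025903-83026202 on the plus strand (Fga), chr3:83049814-83050113 on the minus strand (Fgb), chr3:83007474-83007773 on the plus strand (Fgg) and chr14:75242037-75242336 on the plus strand (Cpb2).
Fga: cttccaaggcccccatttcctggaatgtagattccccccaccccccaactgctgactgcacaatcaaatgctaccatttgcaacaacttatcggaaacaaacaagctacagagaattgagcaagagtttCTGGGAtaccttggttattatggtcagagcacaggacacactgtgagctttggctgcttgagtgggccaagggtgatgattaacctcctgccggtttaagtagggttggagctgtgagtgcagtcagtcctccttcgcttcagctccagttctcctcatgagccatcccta
Fgb: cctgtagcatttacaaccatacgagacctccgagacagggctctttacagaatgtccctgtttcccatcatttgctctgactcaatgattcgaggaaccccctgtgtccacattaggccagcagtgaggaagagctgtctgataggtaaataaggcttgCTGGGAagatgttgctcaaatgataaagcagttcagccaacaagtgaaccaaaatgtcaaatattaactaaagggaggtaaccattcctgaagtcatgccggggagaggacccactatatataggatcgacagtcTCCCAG
Fgg: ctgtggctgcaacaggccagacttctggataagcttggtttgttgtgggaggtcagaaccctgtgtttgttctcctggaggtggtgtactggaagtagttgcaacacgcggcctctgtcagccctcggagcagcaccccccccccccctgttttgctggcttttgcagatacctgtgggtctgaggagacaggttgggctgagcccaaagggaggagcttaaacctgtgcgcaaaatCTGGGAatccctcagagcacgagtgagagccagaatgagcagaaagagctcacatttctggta
Cpb2: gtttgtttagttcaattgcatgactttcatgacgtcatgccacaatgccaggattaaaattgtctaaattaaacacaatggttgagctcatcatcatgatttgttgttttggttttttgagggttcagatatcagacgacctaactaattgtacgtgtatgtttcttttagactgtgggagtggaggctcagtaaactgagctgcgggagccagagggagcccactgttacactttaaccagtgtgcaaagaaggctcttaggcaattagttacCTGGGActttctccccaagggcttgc

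CTGGGA began 121 bases before the start of Fga, 91 bases before and 45 bases after that of Fgb, 13 bases before that of Fgg and 25 bases after that of Cpb2. Of the 33 genes, 25 had a RefSeq window, and 12 of these 25 held CTGGGA. The share was 31.8% of all 32851 windows and, counted per gene name as for the 25, 34.8% of 27025 names. The 12 were those of Cpb2, F10, F13a1, F2, F9, Fga, Fgb, Fgg, Klkb1, Kng2, Pros1 and Tfpi. TTGCNNAA, the form bound by C/EBP factors, was in those of 10 of the 25 genes (10.8% of all windows and 12.2% of all gene names). These 10 were Cpb2, F11, F9, Fga, Fgb, Ggcx, Hrg, Klkb1, Kng2 and Plaur, and the window of Fgg held none. TTCNNNGAA, the palindrome bound by STAT factors, was in 4 (8.30% of all windows and 9.55% of all gene names), those of F9, Fga, Fgb and Pros1. TTAATNATT, a core of HNF1 sites, was in those of F13b and F8 (1.47% of all windows and 1.72% of all gene names). All motifs were searched on both strands. A match is a description of the letters and was not tied to any change in level. CTGGGA overlapped TTCNNNGAA in the window of F9, and no other matches of different motifs overlapped in these windows.

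Whole-series values that touch these genes were few. Mtdh itself had 323 to 1063 normalized reads in the 3 KO_tumor and 436 to 627 in the 3 KO_no_tumor livers, against 3954 to 5702 in WT_tumor and 4330 to 5375 in WT_no_tumor livers. The estimated depth was 12700000 reads in KO_tumor replicate 1, which had 14899 genes above 0, and 25700000 to 43000000 reads in the other 11 libraries. In that shallow library 3 reads correspond to a value of 7.40, against at most 3.95 elsewhere. Of 8 hepatocyte markers 7 were in the table, and their summed level was 3133940 to 4777300 in KO_tumor, 3203390 to 3563020 in KO_no_tumor, 3597370 to 4392390 in WT_tumor and 2881600 to 3333870 in WT_no_tumor livers. These sums were higher with a tumour, without overlap, in WT livers and overlapped in KO livers. In WT livers 4 of 7 markers had a positive estimate, and 0 of 7 passed the test (limma). Alb alone took 9.82% to 11.2% of all signal in WT_tumor and 7.16% to 7.55% in WT_no_tumor livers. It took 8.58% to 12.3% in KO_tumor and 6.12% to 9.17% in KO_no_tumor livers. In bulk liver, fewer cells of a type and less RNA per cell cannot be told apart.

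Per kb of transcript, fibrinogen, kininogen and Pzp were the most abundant genes of the set, and genes known from other liver cells were among the least abundant. Fgg, Pzp, Kng1, Fga and Fgb held the first 5 places, at a mean over 12 libraries of 47622, 40743, 27985, 23239 and 17574 normalized reads per kb. The same 5 genes held the first 5 places per kb of coding sequence. Hrg, Plg, F2, Cpb2 and F5 followed, between 9994 and 4763 per kb. Genes known mainly from cells other than hepatocytes lay far lower: F8 had 193, Tfpi 109, Thbd 68.7, Plau 41.3, F3 40.0 and Vwf 30.7 normalized reads per kb. F13a1, Plaur and Plat lay at 9.39, 6.10 and 3.76 per kb, and A2m at 0.187 per kb. A2m, the mouse gene that carries the alpha-2-macroglobulin name, was at 0 in 7 of 12 libraries and at most 3.39 normalized reads, whereas its relative Pzp, the main broad-range protease inhibitor of mouse plasma, was the second most abundant of the set.

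**Figure D1:**
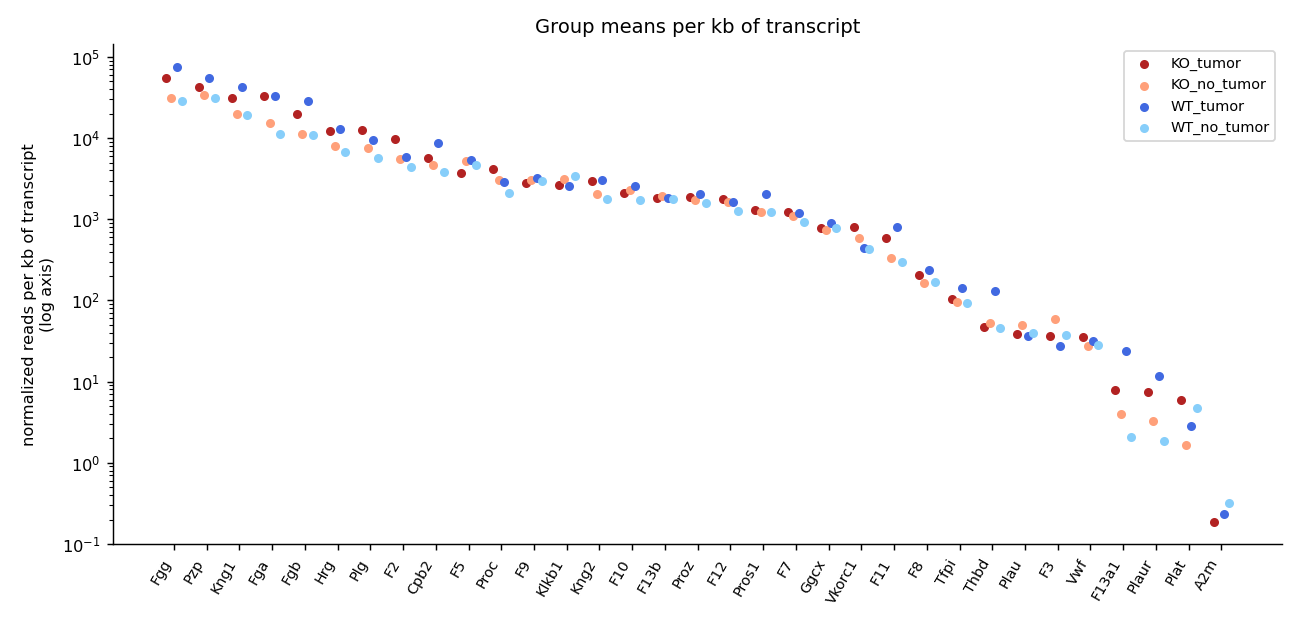
Mean normalized reads per kb of transcript (vertical log axis) of the 33 genes in KO_tumor, KO_no_tumor, WT_tumor and WT_no_tumor livers, ordered by the mean of all 12 libraries; points are means of 3 libraries, and A2m in KO_no_tumor is at 0 and not drawn. The 3 fibrinogen genes, Pzp and Kng1 lead, and A2m lies last.

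In wild-type livers with a tumour, the 3 fibrinogen genes and Cpb2 were higher than in those without. In WT_tumor against WT_no_tumor livers 4 genes of 32 rose and 0 fell: Fga, Fgb, Fgg and Cpb2 (limma, Benjamini-Hochberg adjusted p under 0.05). Of all 17380 genes tested 0.679% passed in this comparison, and 0.432% passed and were higher. Of the 32 genes, 27 had a positive log2 fold change, with a median of 0.52 against 0.00 over all genes. At unadjusted p under 0.05 there were 15, all higher, against 8.67% of all genes in either direction and 4.49% higher. In 17 of the 32 every WT_tumor library lay above every WT_no_tumor library, against 9.46% of all genes, and in 0 every WT_tumor library lay below, against 8.05%.

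In KO_tumor against KO_no_tumor livers 0 of 32 genes passed limma's adjusted threshold, as did 0% of all genes. At unadjusted p under 0.05 there were 7, all higher, against 12.7% of all genes in either direction and 5.13% higher: Fga, Fgb, Fgg, F2, Plg, Kng1 and Kng2. The log2 fold change was positive for 22 of 32, with a median of 0.22 against −0.08 over all genes. The 7 became 1 without KO_no_tumor replicate 1, 3 without KO_tumor replicate 1, 4 without KO_tumor replicate 3 and 11 without KO_tumor replicate 2, and the median became 0.14 without KO_tumor replicate 3 and 0.34 without KO_tumor replicate 2. Every KO_tumor library lay above every KO_no_tumor library for 5 genes (Fga, Fgb, Fgg, F2 and Vwf; 7.34% of all genes) and below for F5 (9.48% of all genes). Averaged over both genotypes, the tumour comparison again called Fga, Fgb, Fgg and Cpb2, all higher, where 1.06% of all genes passed, and 0.616% passed and were higher. The 3 tumour comparisons share libraries, so their lists do not count as separate evidence.

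**Figure D2:**
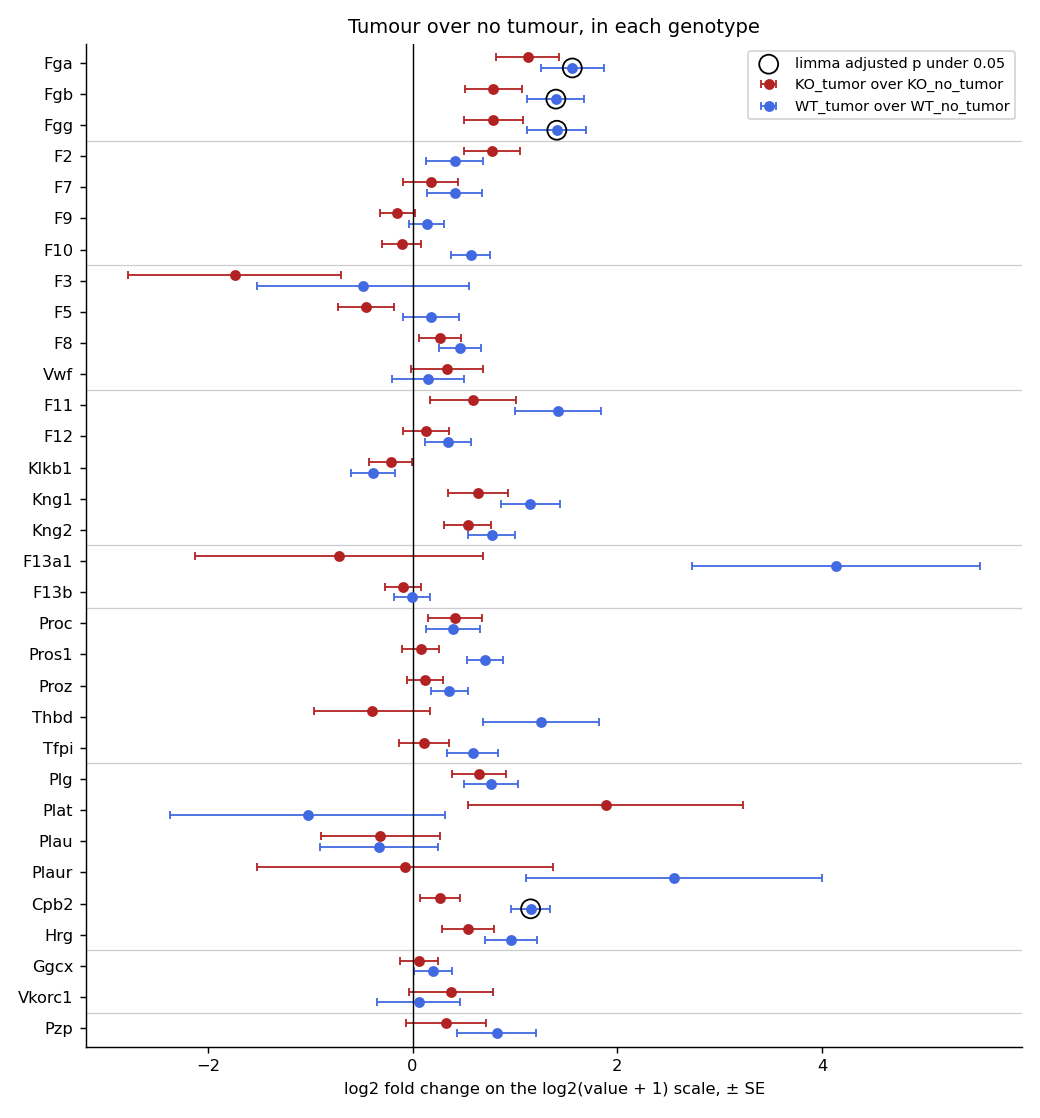
Log2 fold change on the log2(value + 1) scale, ± SE, of tumour over no tumour for the 32 tested genes in KO (red) and in WT livers (blue), 3 libraries per group, with grey lines between roles and rings around genes with a limma adjusted p under 0.05. The 4 ringed points are Fga, Fgb, Fgg and Cpb2 in WT livers; F13a1, F3, Plat and Plaur have wide errors.

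The fibrinogen genes encode the 3 chains of the clot-forming protein. Fga, the alpha chain, had 114357, 59144 and 83793 normalized reads in KO_tumor and 26196, 44885 and 46321 in KO_no_tumor livers, against 79418, 92088 and 87179.6 in WT_tumor and 28551, 25886 and 33605 in WT_no_tumor livers. Every tumour library lay above every library without a tumour, in both genotypes. Fga rose in WT_tumor livers by 1.56 ± 0.31 (SE) on the log2 scale, a 2.95-fold difference (limma adjusted p = 0.0356). In KO livers the estimate was 1.13 ± 0.31 (limma adjusted p = 0.324).

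Fgb, the beta chain, had 93544, 51038 and 81051 normalized reads in KO_tumor and 37379, 44709 and 44929 in KO_no_tumor livers, against 114690.0, 96386 and 116089 in WT_tumor and 39348, 40229 and 44077 in WT_no_tumor livers. Again the tumour libraries lay above those without a tumour, and KO_tumor replicate 2 was the lowest of the 6 tumour libraries. Fgb rose in WT_tumor livers by 1.40 ± 0.28 (limma adjusted p = 0.0369), and the KO estimate was 0.79 ± 0.28 (limma adjusted p = 0.343). Fgg, the gamma chain, had 106815, 72242 and 106266 normalized reads in KO_tumor and 45451, 63612 and 55169 in KO_no_tumor livers, against 138967, 123377 and 133008 in WT_tumor and 44682, 45385 and 59955 in WT_no_tumor livers. The groups did not overlap within either genotype. Fgg rose in WT_tumor livers by 1.41 ± 0.29 (limma adjusted p = 0.0418), and the KO estimate was 0.79 ± 0.29 (limma adjusted p = 0.348).

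The 3 genes lie next to each other on chromosome 3 within 42.1 kb (Fgg 82915031 to 82922357 and Fga 82933383 to 82940935 on the plus strand, Fgb 82947448 to 82957171 on the minus strand, mm39). Together they took 0.872% ± 0.192 of all signal in KO_tumor and 0.443% ± 0.0963 in KO_no_tumor livers, against 1.14% ± 0.0689 in WT_tumor and 0.405% ± 0.0619 in WT_no_tumor livers (SD, n = 3 each). The ratio of Fgb to Fgg reads stayed close between groups, at 0.782 ± 0.0862 in KO_tumor and 0.780 ± 0.0668 in KO_no_tumor livers, against 0.826 ± 0.0458 in WT_tumor and 0.834 ± 0.0857 in WT_no_tumor livers. The ratio of Fga to Fgg reads varied more, from 0.560 in a WT_no_tumor library to 1.07 in KO_tumor replicate 1. All 33 genes together took 2.41% ± 0.444 of the signal in KO_tumor and 1.60% ± 0.126 in KO_no_tumor livers, against 3.02% ± 0.0349 in WT_tumor and 1.50% ± 0.0643 in WT_no_tumor livers.

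**Figure D3:**
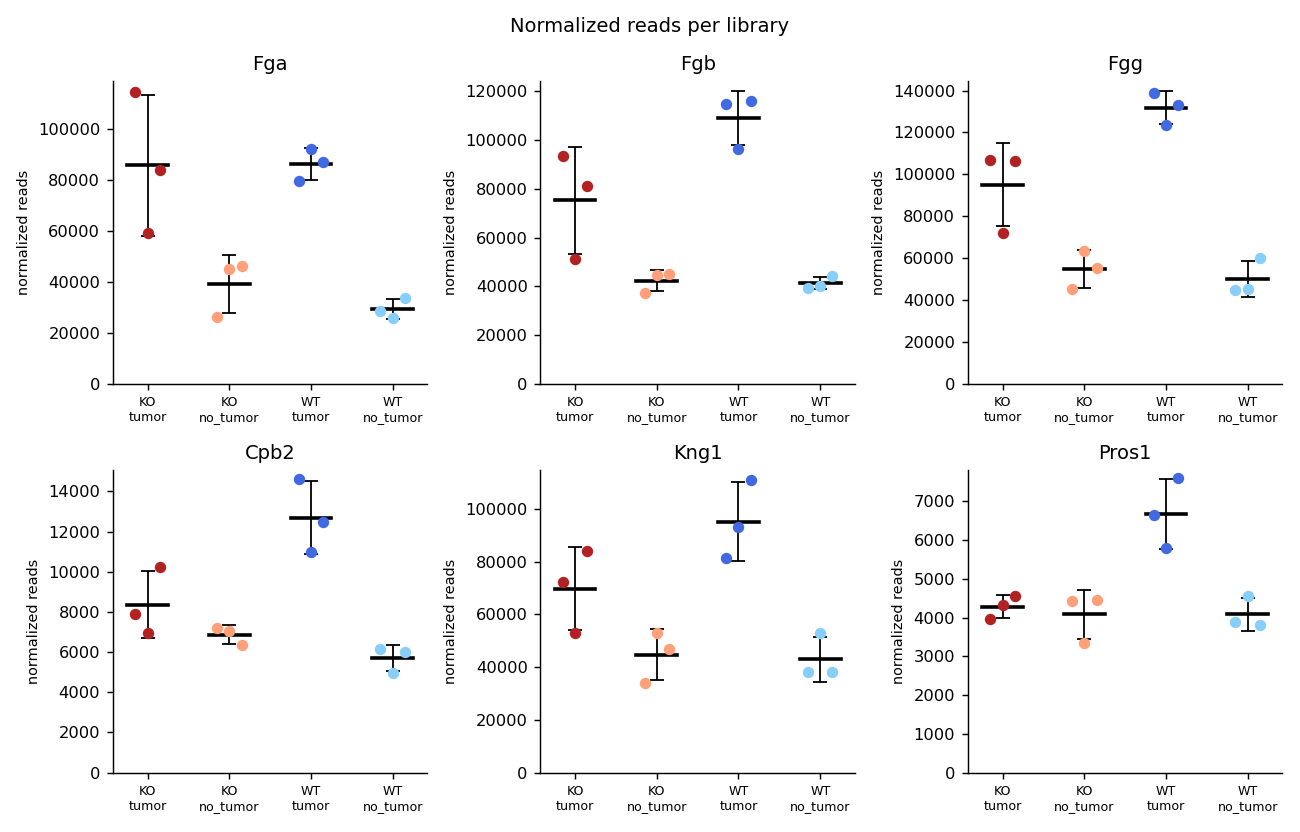
Normalized reads (vertical axis, from 0) of Fga, Fgb, Fgg, Cpb2, Kng1 and Pros1 in each library of KO_tumor, KO_no_tumor, WT_tumor and WT_no_tumor livers; points are libraries, and lines and bars are the mean and SD of 3. The fibrinogen genes are higher with a tumour in both genotypes, while Cpb2 and Pros1 are high in the WT_tumor group, which lies above the other groups in every library.

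Cpb2, carboxypeptidase B2, which once activated trims fibrin and slows its breakdown by plasmin, was the member with the smallest p in WT livers. It had 7908, 6946 and 10217 normalized reads in KO_tumor and 7203, 7050.0 and 6332 in KO_no_tumor livers, against 14594, 11001 and 12468 in WT_tumor and 6135, 4939 and 6001 in WT_no_tumor livers. The 3 WT_tumor values lay above all 9 others, and the KO groups overlapped. Cpb2 (chromosome 14, 75479727 to 75520996 on the plus strand, mm39) rose in WT_tumor livers by 1.15 ± 0.19 on the log2 scale (limma adjusted p = 0.0158), against an estimate of 0.27 ± 0.19 in KO livers (limma adjusted p = 0.529).

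The 4 wild-type calls depended on single libraries. Without WT_tumor replicate 1 or 3, or without WT_no_tumor replicate 1 or 2, 0 genes of the set passed. Over all genes 21, 12, 18 and 18 passed in that order, against 118 with all 12 libraries. Without KO_tumor replicate 3 or WT_no_tumor replicate 3 there was 1 call in the set (95 and 67 over all genes). Without any 1 of the KO_no_tumor libraries there were 2 (92, 91 and 88 over all genes). Over the alternatives the limma adjusted p lay between 0.00142 and 0.0997 for Cpb2, 0.00371 and 0.158 for Fga, 0.00312 and 0.177 for Fgb, and 0.00541 and 0.211 for Fgg. Averaged over genotypes, Fga rose by 1.34 ± 0.22 and passed in all 20 alternatives (limma adjusted p 0.00078 to 0.0408), Fgb and Fgg rose by 1.09 ± 0.20 and 1.10 ± 0.20, and Cpb2 by 0.71 ± 0.14. Their limma adjusted p-values were 0.0109, 0.0187, 0.0223 and 0.0249 in that order.

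The other genes of fibrin breakdown did not pass the test in any comparison. Plg, which encodes plasminogen, the precursor of plasmin, had 46639.9, 20856 and 35396 normalized reads in KO_tumor and 19732, 21411 and 21248 in KO_no_tumor livers, against 28212, 25559 and 24843 in WT_tumor and 17348, 12749 and 16387 in WT_no_tumor livers. The WT groups did not overlap, whereas KO_tumor replicate 2 lay among the KO_no_tumor values. The log2 fold change of tumour over no tumour was 0.65 ± 0.26 in KO (limma adjusted p = 0.370) and 0.77 ± 0.26 in WT livers (limma adjusted p = 0.326). Hrg, histidine-rich glycoprotein, which binds plasminogen and heparin, averaged 21027 ± 6808 in KO_tumor and 14045 ± 2074 in KO_no_tumor livers, against 22651 ± 4516 in WT_tumor and 11592 ± 2182 in WT_no_tumor livers (SD, n = 3 each). Its WT estimate was 0.96 ± 0.26 (limma adjusted p = 0.147). The plasminogen activators Plat and Plau and the urokinase receptor Plaur were low, with group means of 4.14 to 14.8, 85.4 to 117 and 2.77 to 17.8 normalized reads and SEs of 1.34, 0.58 and 1.45 on the log2 scale for the tumour comparison within a genotype.

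None of the vitamin K dependent clotting proteases passed the test, and F2 had its highest values in KO_tumor livers. F2, prothrombin, had 27662, 12619 and 18579 normalized reads in KO_tumor and 8899, 11810.0 and 12269 in KO_no_tumor livers, against 11157, 14824 and 9153 in WT_tumor and 9725, 7339.9 and 9033 in WT_no_tumor livers. The KO groups did not overlap, although KO_tumor replicate 2 lay just above the highest KO_no_tumor value, and the WT groups overlapped. The estimates of tumour over no tumour were 0.78 ± 0.28 in KO (limma adjusted p = 0.344) and 0.41 ± 0.28 in WT livers (limma adjusted p = 0.771).

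F10, factor X, had 5767, 4358 and 5895 normalized reads in KO_tumor and 5699, 5609 and 5791 in KO_no_tumor livers, against 7485, 6443 and 5535 in WT_tumor and 4606, 3617 and 4926 in WT_no_tumor livers. The WT groups did not overlap, with an estimate of 0.57 ± 0.19 (limma adjusted p = 0.294), and the KO estimate was −0.11 ± 0.19. F7, factor VII, which starts clotting together with tissue factor, had 2232, 1967 and 2613 in KO_tumor and 2285, 2190.3 and 1584 in KO_no_tumor livers, against 2499.7, 1712 and 2439 in WT_tumor and 2105, 1053 and 2000.1 in WT_no_tumor livers. These groups overlapped within each genotype. F9, factor IX, had group means between 7656 and 8815, with estimates of −0.15 ± 0.17 in KO and 0.14 ± 0.17 in WT livers. The KO estimates of F9 and F10 turned positive under quantile normalization.

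The contact system comprises the proteases and carriers of the surface-triggered pathway. Kng1, a kininogen gene whose product carries prekallikrein and releases bradykinin, had 72267, 52839 and 83969 normalized reads in KO_tumor and 33975, 52929.6 and 46994 in KO_no_tumor livers, against 81228, 93034 and 111037 in WT_tumor and 38109, 52883 and 38004 in WT_no_tumor livers. The WT groups lay apart, and in KO livers 1 tumour library fell just under the highest library without a tumour. The estimates for Kng1 were 0.64 ± 0.29 in KO (limma adjusted p = 0.388) and 1.15 ± 0.29 in WT livers (limma adjusted p = 0.118). Its neighbour Kng2, the second mouse kininogen gene, had 7451, 5281 and 7843 in KO_tumor and 3400.3, 5339 and 5511 in KO_no_tumor livers, against 6655, 8039.9 and 6209 in WT_tumor and 3912, 4863 and 3496 in WT_no_tumor livers. Kng1 and Kng2 transcripts share 17.2% and 19.4% of their 50-base stretches, so reads could be split between them. The Kng2 estimate was 0.77 ± 0.23 in WT livers (limma adjusted p = 0.209), where the groups did not overlap.

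F11, factor XI, and Klkb1, plasma prekallikrein, are neighbours on chromosome 8 with 4.66 kb between them, and had estimates of opposite sign in WT livers. F11 averaged 1333 ± 799 in KO_tumor and 748 ± 117 in KO_no_tumor livers, against 1793 ± 426 in WT_tumor and 667 ± 130 in WT_no_tumor livers (SD, n = 3 each), with a WT estimate of 1.42 ± 0.42 (limma adjusted p = 0.208). Klkb1 averaged 13996 ± 1876 in KO_tumor and 16246 ± 2430.0 in KO_no_tumor livers, against 13493 ± 1617 in WT_tumor and 17810.4 ± 3768 in WT_no_tumor livers, with a WT estimate of −0.39 ± 0.21 (limma adjusted p = 0.687). The ratio of F11 to Klkb1 reads was 0.0341 to 0.157 in KO_tumor and 0.0409 to 0.0544 in KO_no_tumor livers, against 0.121 to 0.151 in WT_tumor and 0.0326 to 0.0436 in WT_no_tumor livers. The ratios did not overlap in WT and overlapped in KO livers. Klkb1 shares 42.7% of its 50-base stretches with the gene model Gm45753, so its level is uncertain. F12, factor XII, had group means between 2511 and 3479 and estimates of 0.13 ± 0.22 in KO and 0.35 ± 0.22 in WT livers.

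Cofactors and initiators did not pass the test. Vwf, von Willebrand factor, which carries factor VIII and tethers platelets, had 365, 292 and 274 normalized reads in KO_tumor and 225, 249.8 and 258 in KO_no_tumor livers, against 342, 173 and 322 in WT_tumor and 319.9, 159 and 272 in WT_no_tumor livers. The KO groups did not overlap and the WT groups did, with estimates of 0.34 ± 0.35 and 0.15 ± 0.35. F8, factor VIII, averaged 2001 ± 542 in KO_tumor and 1617 ± 127 in KO_no_tumor livers, against 2287 ± 209 in WT_tumor and 1650.3 ± 62.9 in WT_no_tumor livers (SD, n = 3 each). Its WT groups did not overlap (0.47 ± 0.21, limma adjusted p = 0.538), and Fundc2, which overlaps it on the other strand, had 24.2% of its level. F5, factor V, averaged 27971 ± 2188 in KO_tumor and 38447 ± 5681 in KO_no_tumor livers, against 40377 ± 13064 in WT_tumor and 34754 ± 6266 in WT_no_tumor livers. It was the gene whose KO_tumor values all lay below those of KO_no_tumor (−0.45 ± 0.27, limma adjusted p = 0.467). F3, tissue factor, was 26.6 to 127 in 11 libraries and 2.47, the value of 1 read, in KO_tumor replicate 1.

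F13a1 and F13b encode the subunits of factor XIII, which crosslinks fibrin. F13b, the carrier subunit made by hepatocytes, had group means between 4278 and 4630.2 and estimates of −0.09 ± 0.18 in KO and −0.00 ± 0.18 in WT livers. F13a1, the enzyme subunit known from platelets and myeloid cells, had 0, 10.4 and 82.3 normalized reads in KO_tumor and 12.3, 13.5 and 21.05 in KO_no_tumor livers, against 89.3, 110.2 and 81.9 in WT_tumor and 16.9, 0 and 7.57 in WT_no_tumor livers. This gene and Thbd are outside the naming rule and were chosen for full values after those values were seen. The 3 WT_tumor values lay above all WT_no_tumor values, while KO_tumor replicate 3 reached the level of the WT_tumor group. The estimates were −0.72 ± 1.41 in KO and 4.13 ± 1.41 in WT livers (limma adjusted p = 0.317), and the KO estimate turned positive with a pseudocount of 10 or quantile normalization. The antisense model Gm49144 had 83.6% of the level of F13a1, and the use of strand is not stated.

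Summed platelet and megakaryocyte markers were highest in WT_tumor livers, and 0 of the 3 tested passed the test in any comparison (limma). Of 9 listed, 7 were in the table, and their summed level was 4.93 to 154 in KO_tumor and 51.4 to 141 in KO_no_tumor livers, against 221 to 314 in WT_tumor and 57.8 to 66.3 in WT_no_tumor livers. Gp9 and Gp1ba were at 0 in all 3 KO_tumor libraries, and Gp1ba in all 3 WT_tumor libraries. Summed monocyte markers were 3635 to 4539 in KO_tumor and 2883 to 5670 in KO_no_tumor livers, against 5496 to 9574 in WT_tumor and 2840 to 8923 in WT_no_tumor livers. Summed markers of sinusoidal endothelium, which makes factor VIII, were 8023 to 9185 in KO_tumor and 5066 to 6712 in KO_no_tumor livers, against 7705 to 9598 in WT_tumor and 5192 to 6906 in WT_no_tumor livers. For vascular endothelium they were 8353 to 14388 in KO_tumor and 5926 to 6956 in KO_no_tumor livers, against 7436 to 9440 in WT_tumor and 4402 to 6822 in WT_no_tumor livers. Each endothelial sum was higher with a tumour, without overlap, in both genotypes. Within each genotype, however, 0 of 7 sinusoidal and 0 of 7 vascular markers passed the test (limma). Averaged over genotypes 1 of 7 sinusoidal and 0 of 7 vascular markers passed. The estimate was positive for 7 sinusoidal and 6 vascular markers in KO, and for 5 and 7 in WT livers. Summed markers of stellate cells and fibroblasts were 10892 to 15741 in KO_tumor and 7843 to 9552 in KO_no_tumor livers, against 18343 to 20908 in WT_tumor and 9192 to 9943 in WT_no_tumor livers, also without overlap in either genotype. In WT_tumor against WT_no_tumor livers 2 of these 7 markers passed the test (limma), both higher, as did 1 of 4 tested monocyte markers and 1 of 7 erythroid markers. Summed erythroid markers were 2456 to 11915 in KO_tumor and 2469 to 4318 in KO_no_tumor livers, against 6315 to 10552 in WT_tumor and 2167 to 4266 in WT_no_tumor livers. Summed neutrophil markers, of which 0 of 4 tested passed, were 41.9 to 273 in KO_tumor and 70.2 to 89.4 in KO_no_tumor livers, against 262 to 679 in WT_tumor and 51.7 to 196 in WT_no_tumor livers. The neutrophil marker Camp was at 0 in every library outside the WT_tumor group. The part of these cell types in the values of the fibrinogen genes, Cpb2, F13a1, F8, Vwf, Thbd and Tfpi was not tested.

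**Figure D4:**
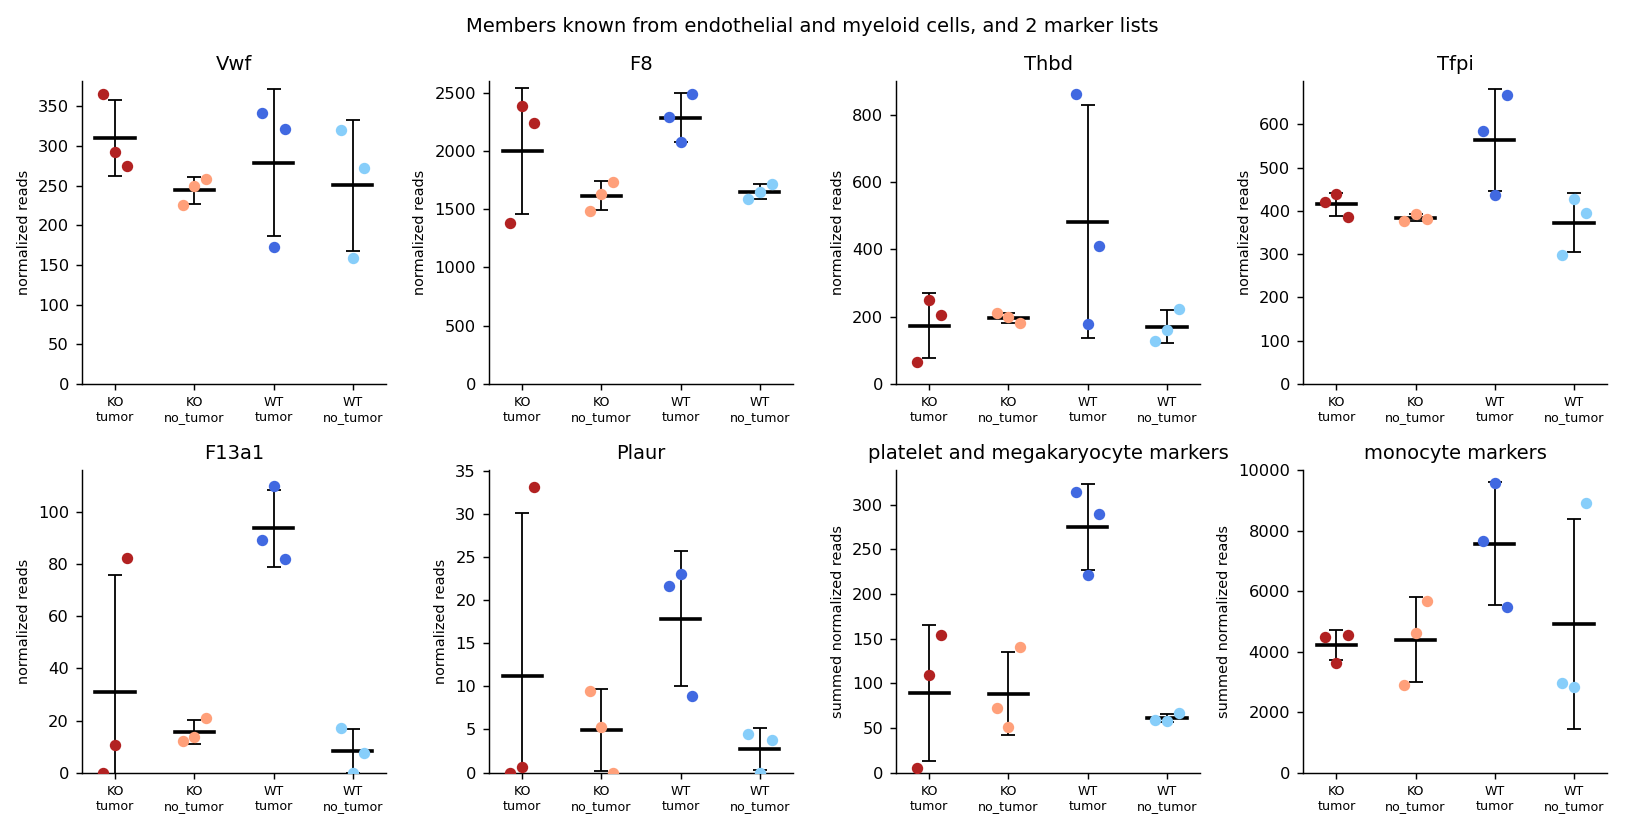
Normalized reads (vertical axes, from 0) of Vwf, F8, Thbd, Tfpi, F13a1 and Plaur, and summed normalized reads of the platelet and megakaryocyte markers and of the monocyte markers, in each library of KO_tumor, KO_no_tumor, WT_tumor and WT_no_tumor livers; points are libraries, and lines and bars are the mean and SD of 3, cut at 0. F13a1 and the summed platelet markers are high in all 3 WT_tumor libraries, and Thbd reaches 862 in 1 of them.

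Anticoagulant genes did not pass the test either. Pros1, protein S, the cofactor of activated protein C, had 3960.0, 4329 and 4554 normalized reads in KO_tumor and 4420.1, 3354 and 4462 in KO_no_tumor livers, against 6655, 5794 and 7601 in WT_tumor and 3885, 4566 and 3798 in WT_no_tumor livers. The WT_tumor values lay above all 9 others, with an estimate of 0.71 ± 0.18 over WT_no_tumor (limma adjusted p = 0.117) and of 0.08 ± 0.18 between the KO groups. Proc, protein C, had 7725, 4613 and 7066 normalized reads in KO_tumor and 4830.3, 4199 and 5242 in KO_no_tumor livers, against 4051, 6431 and 3077 in WT_tumor and 3914, 2975 and 3032 in WT_no_tumor livers. Its groups overlapped within each genotype, with estimates of 0.41 ± 0.26 in KO and 0.39 ± 0.26 in WT livers.

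Thbd, thrombomodulin, the thrombin receptor that activates protein C, had 64.1, 248 and 206 normalized reads in KO_tumor and 212, 198 and 180.2 in KO_no_tumor livers, against 862, 178 and 409.5 in WT_tumor and 126, 161 and 223 in WT_no_tumor livers. WT_tumor replicate 1 was the highest of the 12 libraries and the groups overlapped in both genotypes. Tfpi, which blocks tissue factor with factor VIIa, averaged 415 ± 27.0 in KO_tumor and 384 ± 8.02 in KO_no_tumor livers, against 563 ± 118 in WT_tumor and 373 ± 67.7 in WT_no_tumor livers (SD, n = 3 each). Proz, protein Z, a cofactor in the inhibition of factor Xa, had group means between 5311 and 6808.

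Of the vitamin K cycle, Ggcx, the carboxylase that modifies the vitamin K dependent proteins, had group means between 2187 and 2597. Vkorc1, the reductase that recycles vitamin K and is blocked by warfarin, had 905, 336 and 569 normalized reads in KO_tumor and 434, 542 and 336 in KO_no_tumor livers, against 300.4, 467 and 229 in WT_tumor and 414, 185 and 371 in WT_no_tumor livers. The groups overlapped within each genotype. Vkorc1 shares 44.7% of its 50-base stretches with the gene model Gm21974, which had 0.408% of its level. Pzp averaged 199629 ± 52190 in KO_tumor and 157683 ± 30731 in KO_no_tumor livers, against 260239 ± 55973 in WT_tumor and 145320.0 ± 14691 in WT_no_tumor livers (SD, n = 3 each), with a WT estimate of 0.82 ± 0.39 (limma adjusted p = 0.588).

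Between genotypes 0 genes of the set passed the test. In KO_no_tumor against WT_no_tumor livers 0 of 32 passed (limma), where 0.00575% of all genes did, and 0 of 32 had an unadjusted p under 0.05, against 1.93% of all genes. The median log2 fold change was 0.18 against −0.01 over all genes, and 27 of 32 were positive; without KO_no_tumor replicate 3 or WT_no_tumor replicate 3 the median was 0.11. Cpb2, Proc, F3, F10 and Plg were higher in every KO_no_tumor than in every WT_no_tumor library (3.56% of all genes), and 0 genes were lower in every library (4.37% of all genes). F10 had the smallest p, with 0.39 ± 0.19, followed by Proc with 0.53 ± 0.26 and Plg with 0.44 ± 0.26.

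In KO_tumor against WT_tumor livers 0 of 32 genes passed (limma), where 0.023% of all genes did. At unadjusted p under 0.05 there were 5, against 14.4% of all genes, so the share in the set was close to the background. One was higher and 4 were lower in KO_tumor livers, against 6.31% higher and 8.13% lower over all genes. F2 was positive (0.70 ± 0.28, limma adjusted p = 0.279), and Pros1 (−0.64 ± 0.18, limma adjusted p = 0.184), Cpb2 (−0.61 ± 0.19, limma adjusted p = 0.211), Thbd (−1.41 ± 0.57) and F13a1 (−3.26 ± 1.41) were negative. Every KO_tumor library lay below every WT_tumor library for Cpb2, Pros1, Fgb and Fgg (9.80% of all genes), and above for 0 genes (8.11% of all genes). The median was −0.20 against −0.12 over all genes. It was −0.07 without KO_tumor replicate 2, −0.32 without KO_tumor replicate 3 and −0.13 without WT_tumor replicate 3. The 5 genes at unadjusted p under 0.05 became 2 without WT_tumor replicate 1 or 3 and 9 without WT_tumor replicate 2. With library weights 5 genes of the set passed: F2 and Proc higher, and Cpb2, Pros1 and Thbd lower. With these weights 1664 of all 17380 genes passed, 813 higher and 851 lower, against 4 without weights. Averaged over tumour states 0 of 32 passed (limma; 0.0115% of all genes), with 4 at unadjusted p under 0.05 (10.3% of all genes), of which 3 were higher (4.86%) and 1 lower (5.43%) in KO, and Proc was first with 0.54 ± 0.19 (limma adjusted p = 0.401). These 4 became 1 without WT_tumor replicate 3 and 2 without KO_no_tumor replicate 2 or WT_no_tumor replicate 2.

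**Figure D5:**
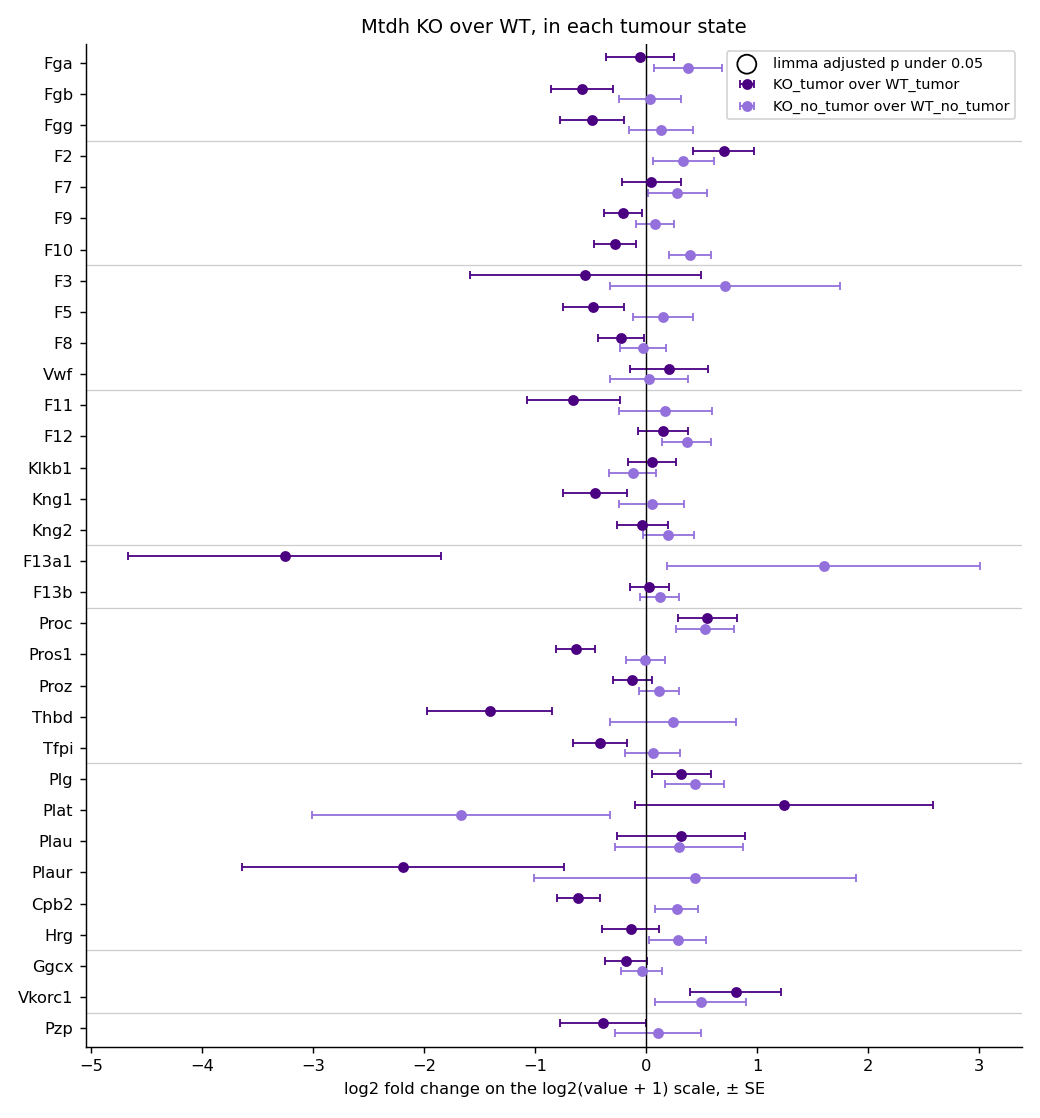
Log2 fold change on the log2(value + 1) scale, ± SE, of KO over WT for the 32 tested genes in livers with a tumour (dark) and without (light), 3 libraries per group, with grey lines between roles; a ring would mark a limma adjusted p under 0.05 and there is none. Cpb2, Fgb, Fgg and Pros1 lie below 0 with a tumour, and F2, Proc and Vkorc1 above 0 in both states.

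The difference of the tumour effect between genotypes was tested as an interaction. Of 32 genes 0 passed (limma; 0% of all genes), and 4 had an unadjusted p under 0.05, all lower in KO, against 4.70% of all genes in either direction and 2.74% lower: Cpb2 (−0.89 ± 0.27, limma adjusted p = 0.859), F10 (−0.67 ± 0.27), Pros1 (−0.63 ± 0.25) and F13a1 (−4.86 ± 1.99). The interaction was negative for 25 of 32 genes, with a median of −0.35 against −0.09 over all genes. The median interaction was −0.19 without KO_tumor replicate 2, −0.20 with quantile normalization and −0.20 with library weights. Without KO_no_tumor replicate 3 or WT_no_tumor replicate 2, 2 genes had an unadjusted p under 0.05 for the interaction. Without both KO_tumor replicate 1 and KO_no_tumor replicate 3 it was −0.91 ± 0.32 for Cpb2 and −0.72 ± 0.31 for F10. For Pros1 it was then −0.50 ± 0.29 and for F13a1 −2.98 ± 1.61. The unadjusted limma p-values of these 4 were 0.0132, 0.0364, 0.106 and 0.0863. With all libraries the interaction of the fibrinogen genes was −0.43 ± 0.43 (Fga), −0.61 ± 0.39 (Fgb) and −0.62 ± 0.41 (Fgg). The absence of calls in KO livers therefore does not show that the tumour effect differed between genotypes. KO_tumor replicate 2 was the lowest of its group in 19 of 32 genes, 59.4%, against 25.1% of all genes, and KO_tumor replicate 3 the highest in 18 of 32, 56.2%, against 28.3% of all genes. WT_tumor replicate 2 was the lowest of its group in 17 of 32, 53.1%, against 37.7% of all genes.

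A list of 64 other genes of the pathway, chosen like the members with earlier results known, was counted in the same fit. Of these 62 were in the table and 55 were tested. In WT_tumor against WT_no_tumor livers 7 rose and 1 fell, where 0.432% of all genes passed and were higher and 0.247% passed and were lower. Those that rose included the signalling genes Socs3, a feedback inhibitor of cytokine receptors (2.69 ± 0.39, limma adjusted p = 0.00814), Stat3 (1.17 ± 0.21, limma adjusted p = 0.0231) and Il6st, the shared receptor chain of the interleukin-6 family (0.98 ± 0.18, limma adjusted p = 0.0231). Fgl1, a fibrinogen-like protein of hepatocytes, rose by 2.28 ± 0.34 (limma adjusted p = 0.00814), and Mug2, a murinoglobulin, by 1.64 ± 0.25 (limma adjusted p = 0.0104). Serpinf2, alpha-2-antiplasmin, the main inhibitor of plasmin, had 16762, 9909 and 18230.0 normalized reads in KO_tumor and 9058, 11800.0 and 10248 in KO_no_tumor livers, against 20881, 17493 and 23787 in WT_tumor and 7608, 7727 and 9913 in WT_no_tumor livers. It rose in WT_tumor livers by 1.30 ± 0.24 (limma adjusted p = 0.0262). Selp, P-selectin of platelets and endothelium, also rose (4.22 ± 0.79, limma adjusted p = 0.0272), and Onecut1, a hepatic transcription factor, fell by 2.20 ± 0.44 (limma adjusted p = 0.0378). Whether these calls hold with 1 library left out was not checked. Over all genes 118 passed with all libraries. There were 12 to 21 without WT_tumor replicate 1 or 3 or WT_no_tumor replicate 1 or 2.

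In KO_tumor against KO_no_tumor livers 0 of the 55 passed limma's threshold and 17 had an unadjusted p under 0.05 in either direction, against 12.7% of all genes. Averaged over genotypes 8 rose and 0 fell, where 1.06% of all genes passed and 0.616% passed and were higher: Mug2, Fgl1, Socs3, Il6st, Stat3, Selp, Serpinf2 and Itih1, the last a heavy chain of inter-alpha-trypsin inhibitor. These calls were not checked with 1 library left out either. In the genotype comparisons and the interaction 0 passed limma's threshold, with 3 at unadjusted p under 0.05 without a tumour (1.93% of all genes), 19 with a tumour (14.4% of all genes), 12 on average (10.3% of all genes) and 10 for the interaction (4.70% of all genes), all in either direction. The median log2 fold change of the 55 for tumour over no tumour was 0.27 in KO and 0.47 in WT livers, against −0.08 in KO and 0.00 in WT livers over all genes.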

How the data were processed

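RNA from frozen, powdered liver was sequenced after removal of ribosomal RNA, per the labels' protocols. The deposited values are a normalized signal per gene and library, taken to be reads divided by a DESeq2 size factor, on a linear scale, per the file headers. STAR 2.7.8a, Partek, DESeq2 and build mm39 are named in the submitters' processing notes; for the counting program, the annotation release and strandedness no statement is given in the sources used here. In each library the value of 1 read was taken as the commonest low step, and 78.0% to 85.1% of low values were whole multiples of it within 0.01 reads, so no count model was used and depths are estimates.

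Genes that reached a value of 10 in 3 or more libraries were tested in limma 3.58.1 under R 4.3.3 (eBayes with trend). Each value was raised by 1 and put on a log2 scale, written log2(value + 1). This scale can understate changes of low genes, and a library at 0 can also enlarge or reverse them. For F13a1 the KO estimate was −0.72, while the group means were 30.9 in KO_tumor and 15.6 in KO_no_tumor livers. KO_tumor replicate 1 was at 0. In WT livers the fit gave 17.6-fold for F13a1, with means of 93.8 in WT_tumor and 8.17 in WT_no_tumor livers. A single fit held the 12 libraries and the 4 group means, and 7 comparisons were adjusted by the Benjamini-Hochberg method over 17380 genes each, two-sided, at a threshold of 0.05. The fit was tested on simulated data. The members, lists and tests were chosen with earlier results of these data known.

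Values of every library are given for members past the test, the 3 smallest p-values per comparison, fibrinogen, F2, F7, Kng1, Kng2, Pros1, Vwf, Plg and Vkorc1, and for F13a1, Thbd and Serpinf2, which were chosen after their values were seen. Lengths and shared stretches of 50 bases came from GENCODE transcripts of GRCm38, by gene ID. The length of a gene is that of its longest protein-coding transcript. Python 3.11.15, pandas 2.3.3, numpy 2.4.6 and matplotlib 3.10.9 were used for counts and figures. Some genes of the lists are not reported here.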

Additional observations from a re-analysis of the deposited data

Results flagged for a closer look

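The Cpb2 values of the genotypes lay on opposite sides in the 2 tumour states, and neither difference passed the test. Cpb2 was picked by searching the 32 tested genes for groups that lie apart in opposite directions. The values below are those used to pick it and are no separate support. The share of all genes with this pattern was not counted. Every KO_tumor library (6946 to 10217 normalized reads) lay below every WT_tumor library (11001 to 14594), and every KO_no_tumor library (6332 to 7203) lay above every WT_no_tumor library (4939 to 6135). The estimates were −0.61 ± 0.19 for KO_tumor over WT_tumor (limma adjusted p = 0.211) and 0.27 ± 0.19 for KO_no_tumor over WT_no_tumor (limma adjusted p = 1). The difference of the tumour effect was −0.89 ± 0.27 (SE) on the log2 scale, with an unadjusted limma p of 0.00554 and a limma adjusted p of 0.859 over 17380 genes, so it did not pass the correction.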

How the results depend on the processing

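Counts of calls moved with the processing more than fold changes did. For WT_tumor against WT_no_tumor, 4 genes passed, against 10 with library weights and 0 to 5 with 1 library left out. It was 0 without WT_tumor replicate 1 or 3 or WT_no_tumor replicate 1 or 2, 1 without KO_tumor replicate 3 or WT_no_tumor replicate 3, and 2 without any 1 of the KO_no_tumor libraries. Over all genes 118 passed in this comparison, against 510 with library weights and 12 to 205 with 1 library left out. Averaged over genotypes, 4 genes of the set passed, against 9 with quantile normalization and 12 with library weights. There were 2 without both KO_tumor replicate 1 and KO_no_tumor replicate 3, and 1 to 9 with 1 library left out. The 9 came without KO_tumor replicate 2, and 1 or 2 without KO_tumor replicate 3, KO_no_tumor replicate 1 or 3, WT_tumor replicate 1 or WT_no_tumor replicate 1 or 2. Over all genes 185 passed on average over genotypes, against 233 with quantile normalization and 856 with library weights. All-gene calls were 133 without both those libraries and 47 to 361 with 1 library left out, with 361 without KO_tumor replicate 2. For KO_tumor against WT_tumor 0 genes of the set passed, against 5 with library weights (2 higher, 3 lower). Over all genes 4 passed, against 1664 with library weights. The other 4 comparisons had 0 calls in the set in every alternative. Over all genes they had at most 139, with library weights and both tumour states averaged. The causes were not tested.

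Deviations of libraries with the same replicate number correlated at −0.0936 to 0.0998 over 18 pairs. Those with different numbers correlated at −0.103 to 0.146 over 36 pairs. The replicate numbers are those of the sample titles, and the column names number some KO_no_tumor libraries differently. Pairing by column name was not checked, so these values cannot settle whether samples were paired. With the replicate number as a block, WT_tumor against WT_no_tumor had 1 call in the set, Cpb2, and the averaged comparison 4. Over all genes these comparisons then had 89 and 137 calls.

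No fold change of a called gene changed sign. In WT livers over all alternatives it was 1.05 to 1.27 for Cpb2 and 1.45 to 1.66 for Fga. Quantile normalization moved the median of all genes by 0.13 (KO_tumor against WT_tumor) and 0.11 (interaction). Rescaling to the same total changed the calls over all genes to 77 higher and 25 lower, against 75 and 43, for WT_tumor against WT_no_tumor. On average over genotypes it gave 133 and 45, against 107 and 78. Depth limits the low genes: in KO_tumor replicate 1, F3 rests on 1 read.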

Other observations

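The ratio of Fgg to Plg reads was 2.29 to 3.46 in KO_tumor and 2.30 to 2.97 in KO_no_tumor livers, against 4.83 to 5.35 in WT_tumor and 2.58 to 3.66 in WT_no_tumor livers. The ratios overlapped in KO and lay apart in WT livers; the difference was not tested.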
